A study of Oryza sativa with 12 samples.

Results

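The JAZ (jasmonate ZIM-domain) genes of rice were followed in developing seeds of 3 high-lysine transgenic lines and their wild type on an Affymetrix rice array. They were taken as every gene named JAZ2, JAZ3, JAZ4, JAZ6, JAZ7, JAZ8, JAZ9, JAZ10, JAZ11 or JAZ12 in the array's annotation whose probe sets carry 1 gene each. All 10 names were found, on 12 probe sets, out of 17905 genes named that way; JAZ4 and JAZ10 have 2 probe sets each. The rule reads only gene names, and the names were picked with earlier results of these data known. JAZ1 and JAZ13, also on the array, are given beside them for comparison. JAZ5 is on the array too, but it was above the array median on only 2 of 12 arrays and was not tested.

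JAZ proteins are the repressors of the jasmonate pathway. They bind transcription factors of the MYC2 type and recruit co-repressors through the adaptor NINJA, which keeps jasmonate-responsive genes off. When the active hormone, jasmonoyl-isoleucine, is made, it brings the F-box protein COI1 to the JAZ protein, and the JAZ protein is degraded. Many JAZ genes are themselves induced by jasmonate, so their transcripts are widely used as a readout of the pathway, while the protein is controlled separately and was not measured here. In rice the pathway is known for roles in wound and pathogen defence, salt tolerance, and spikelet and grain development. JAZ proteins belong to the TIFY family, and each rice JAZ gene also has a TIFY name.

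The lines are labelled GR14, 35S-15 and HFL1, each with a high lysine level, and the wild type is the variety Wuxiangjiang9 (WT), with a normal lysine level. Each of the 4 groups had 3 arrays of total RNA from seeds of field-grown plants, 10 days after flowering per the sample labels and 15 per the design text. The labels do not state the transgenes, their promoters or how many transformation events a line represents, and leave open whether a group's arrays are separate plants or repeats of one extract, so p-values cover the variation among these arrays and no more. The series asks how seed development relates to lysine metabolism. The values are MAS5 signals, which summarise the brightness of the probes for a transcript, and are given here as log2. A difference of 1 on that scale is a doubling. Levels of different probe sets cannot be set against each other.

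The WT arrays were not alike. A reporter probe set, K01193, was at 4.53 in WT array 1 and at 13.51 and 13.78 in WT arrays 2 and 3, against 4.67 or less in the 9 arrays of the lines, and the labels do not say whether the 3 WT arrays hold the same plant material. Every difference from WT rests on that, so the calls are also given with WT array 1 as the only WT array. That WT arm has 1 array, which is assumed to vary like the arrays of the other groups, so a call can be lost there through the smaller number alone: calls over all probe sets were 747 in GR14, against 1799 with all arrays. Spearman correlations between the 12 arrays ran from 0.925 to 0.971, and 0 pairs of arrays were identical. As a look at the labelled tissue, 13 tested starchy endosperm genes were read (storage proteins, starch enzymes and the transcription factor NFYB1). Their mean log2 level was 14.81 to 15.28 in GR14, 14.87 to 15.40 in 35S-15, 14.75 to 15.11 in HFL1 and 14.51 to 14.96 in WT. The array medians, 5.67 to 6.09, lay far below, but a high level on its own does not single out a tissue.

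JAZ2 (TIFY5, LOC4342421, chromosome 7) was higher in GR14 than in every other group. Its log2 signal was 10.31, 10.33 and 10.78 in the GR14 arrays. In 35S-15 it was 7.07, 6.75 and 7.32, and in HFL1 8.08, 7.80 and 5.87. In WT it was 8.08, 6.53 and 6.81. All 3 GR14 arrays lay above all 9 others, and the other 3 groups overlapped one another. The lowest value, HFL1 array 3, was the only one below the median of its own array.

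On the linear scale the GR14 signals of JAZ2 were 1270, 1280 and 1760, against 271, 92.7 and 112 in WT. JAZ2 rose in GR14 by 3.33 ± 0.51 (SE) on the log2 scale relative to WT, with a 95% interval of 2.24 to 4.42 and a limma adjusted p of 0.0016, a 10.1-fold difference. Relative to GR14, its log2 difference was -3.43 ± 0.51 in 35S-15 (limma adjusted p 0.00113) and -3.22 ± 0.51 in HFL1 (limma adjusted p 0.00174). In 35S-15 the difference from WT was -0.10, with an interval of -1.19 to 1.00, and in HFL1 it was 0.11, with an interval of -0.99 to 1.20. In order of group means JAZ2 ran GR14 (10.47 ± 0.27, SD, n = 3), HFL1 (7.25 ± 1.20), WT (7.14 ± 0.83) and 35S-15 (7.05 ± 0.28), and the last 3 did not differ beyond their spread.

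The size of the JAZ2 rise depends on WT array 1, which at 8.08 was the highest WT array. With that array as the only WT array the GR14 difference was 2.39 with a limma adjusted p of 0.0964, smaller and no longer past the threshold. With any 1 of the 12 arrays left out, JAZ2 passed in all 12 fits, with differences of 3.03 to 3.80. The contrasts between lines leave out the WT means. There JAZ2 also passed in all 12 such fits, at -3.56 to -3.27 in 35S-15 and -3.64 to -2.54 in HFL1, relative to GR14. The name ending _s_at marks a probe set that may also hybridise with transcripts of other genes, and no other JAZ2 probe set was used here, so the level has no second measurement.

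**Figure D1:**
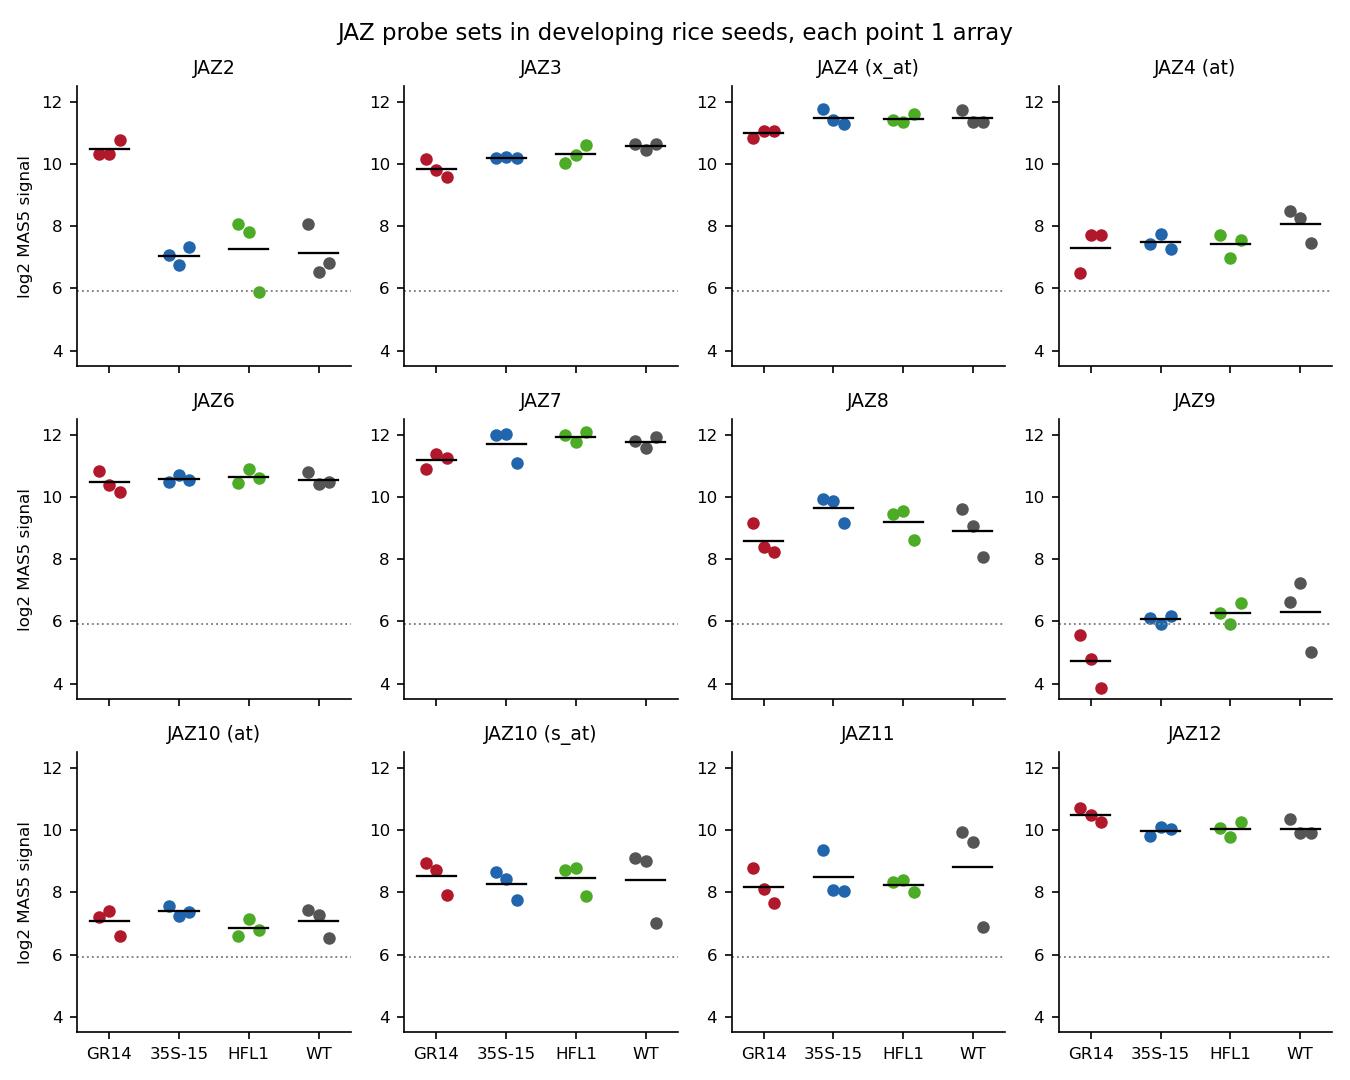
Log2 MAS5 signal (vertical axis) of the 12 JAZ probe sets in GR14, 35S-15, HFL1 and WT, with 1 point per array, a bar at each group mean and a dotted line at the mean of the array medians. The GR14 points of JAZ2 lie at 10.31 to 10.78, above all 9 other arrays, while WT array 3 is the low WT point of JAZ8, JAZ9, JAZ10 and JAZ11.

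JAZ3 (TIFY6A, LOC4345625, chromosome 8) was the other JAZ gene that passed in GR14, in the opposite direction. Its log2 signal was 10.15, 9.79 and 9.58 in GR14, against 10.64, 10.44 and 10.64 in WT. In 35S-15 it was 10.19, 10.21 and 10.18, and in HFL1 10.04, 10.27 and 10.62. The GR14 arrays lay below all WT arrays, and the 35S-15 and HFL1 arrays fell mostly between them. JAZ3 fell by 0.73 ± 0.18 on the log2 scale in GR14, with a 95% interval of -1.11 to -0.36 and a limma adjusted p of 0.0275, which is a 1.66-fold lower signal.

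In order of group means JAZ3 ran WT (10.57 ± 0.12), HFL1 (10.31 ± 0.29), 35S-15 (10.19 ± 0.01) and GR14 (9.84 ± 0.29), and no neighbours in that order passed a test. In 35S-15 the difference from WT was -0.38 (limma adjusted p 0.804), although the arrays of the groups did not overlap, and in HFL1 it was -0.26 (limma adjusted p 0.825). The GR14 call is close to the threshold. It was kept in 7 of the 12 fits that left out 1 array, over which the adjusted p ran from 0.0165 to 0.0927; the omissions that lost it were each of the 3 WT arrays and GR14 arrays 2 and 3. It was also lost with WT array 1 as the only WT array (-0.80, adjusted p 0.173, a slightly larger difference), without the intensity trend in the variance (adjusted p 0.0638), with array weights (-0.67, adjusted p 0.0515) and with the compared groups alone (adjusted p 0.0582). GR14 array 3, the lowest for JAZ3, also had more signal from the 3' than the 5' end of control transcripts than any other array for actin (log2 5.65), GAPDH (4.20) and ubiquitin (0.14), 3 of 5 controls. For EF1a it was instead the lowest array (-2.29), and for cyclophilin (0.88) it lay within the range of the others. WT array 1 was the highest array for EF1a (0.88). Such end differences are a sign of RNA quality, and their part in the result was not tested. Without GR14 array 3 the JAZ3 difference was -0.60.

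**Figure D2:**
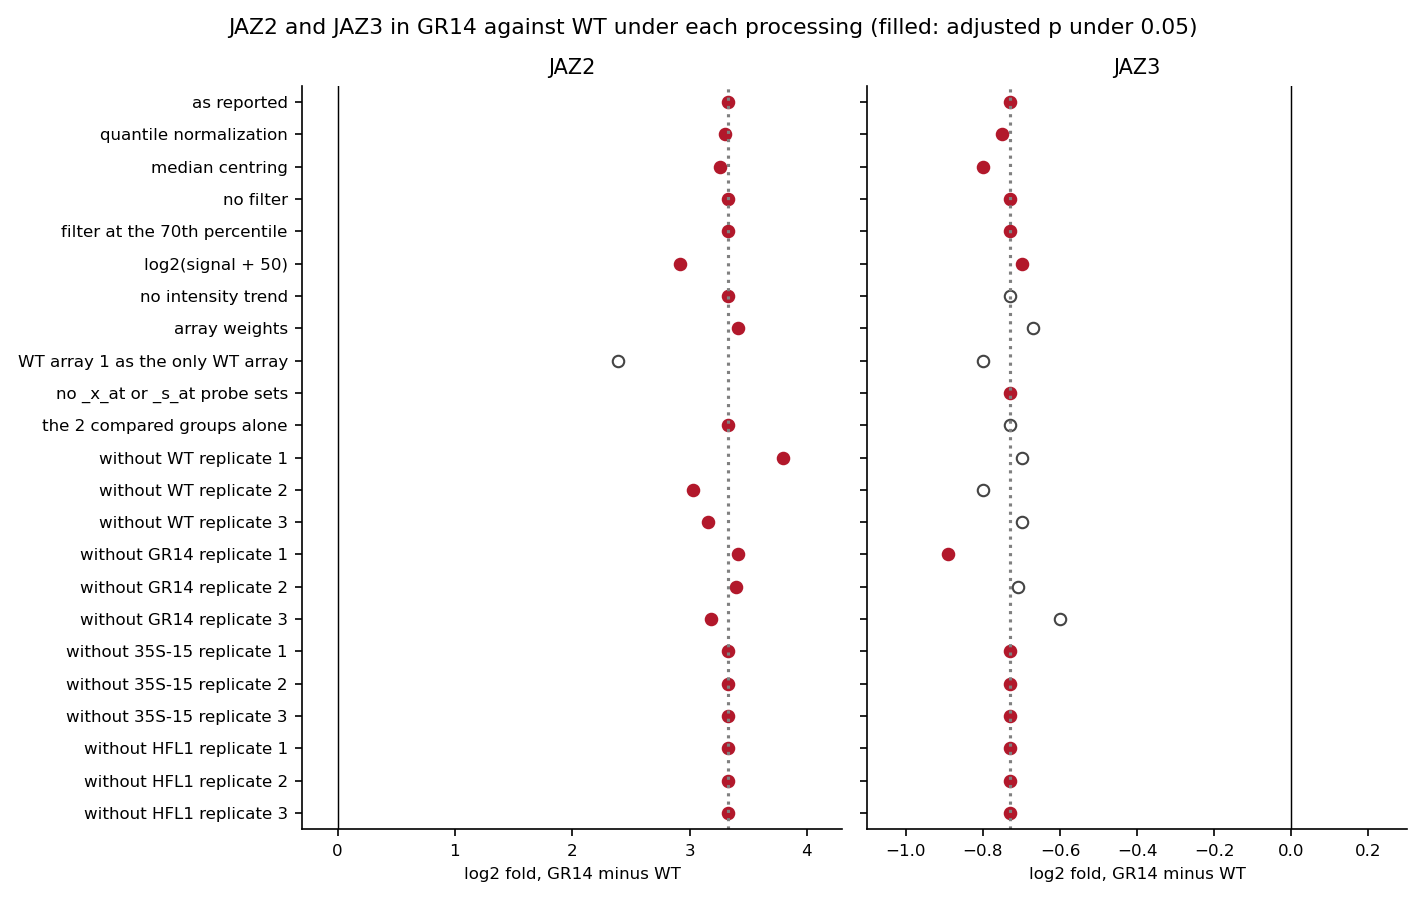
Log2 difference of JAZ2 (left) and JAZ3 (right), GR14 minus WT, under each processing and with each array left out (1 point per fit, filled where the adjusted p was under 0.05, dotted line at the reported value). JAZ2 keeps a positive difference in every fit shown and is open only with WT array 1 as the only WT array (2.39), whereas JAZ3 stays negative and is open in 9 fits.

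Over the family, 1 of the 12 JAZ probe sets was higher and 1 lower in GR14 than in WT, against 2.7% and 2.96% of all 31792 probe sets tested. Over both directions 5.66% of probe sets were called, so 2 of 12 is too few to set the family apart from other genes. All 12 JAZ probe sets had passed the filter on low signals, JAZ9 through 6 arrays of which none was a GR14 array. Their median log2 difference was -0.41, with 9 negative and 3 positive, beside a median of 0.032 over all probe sets. That lean depends on WT array 1: without it 6 were negative and 6 positive, with a median of -0.02, and with it as the only WT array 10 were negative, with a median of -0.68. At an unadjusted p under 0.05 there were 6 of 12, against 20.2% of all probe sets. The arrays did not overlap for 1 higher and 3 lower JAZ probe sets, where 14% and 11% of all probe sets were higher and lower without overlap. The 3 lower ones were JAZ3, the _x_at probe set of JAZ4, and JAZ7.

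By limma, 0 JAZ probe sets differed from WT in 35S-15, and the count in HFL1 was also 0, where 0.0283% of all probe sets passed in each. At an unadjusted p under 0.05 there were 1 (JAZ3) in 35S-15 and 0 in HFL1, against 6.19% and 6.74% of all probe sets. Differences from WT ran from -0.58 to 0.73 in 35S-15 and from -0.64 to 0.29 in HFL1. Relative to GR14, JAZ2 was the 1 JAZ probe set that passed in 35S-15, where 5.94% of all probe sets passed and 2.52% were lower, and the 1 that passed in HFL1, where 6.71% passed and 2.79% were lower. At an unadjusted p under 0.05 there were 6 of 12 in each, against 19.5% of all probe sets in 35S-15 and 20.9% in HFL1. Of the 12 differences from GR14, 9 were positive in 35S-15, with a median of 0.32 beside -0.015 over all probe sets. In HFL1 8 were positive, with a median of 0.15 beside -0.02. The arrays did not overlap for 4 higher and 2 lower JAZ probe sets in 35S-15 (11.2% and 13% of all probe sets) and for 3 higher and 2 lower in HFL1 (12.1% and 14.2% of all probe sets). The higher ones included the _x_at probe set of JAZ4 and JAZ9 in both lines, and the lower ones were JAZ2 and JAZ12 in both. Between HFL1 and 35S-15, 0 passed, against 0.00629% of all probe sets, and 0 had an unadjusted p under 0.05, against 4.46% of all probe sets. The comparisons that involve GR14 share its 3 arrays, so these calls of JAZ2 are not separate observations of its GR14 level.

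GR14 had the lowest mean of the 4 groups for 8 of the 12 JAZ probe sets, against 31% of all probe sets tested, and WT had the lowest for 0, against 24.5%. Except for JAZ3, none of these 8 passed a test against WT. They include both probe sets of JAZ4, and also JAZ9, which had passed the filter through no GR14 array.

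**Figure D3:**
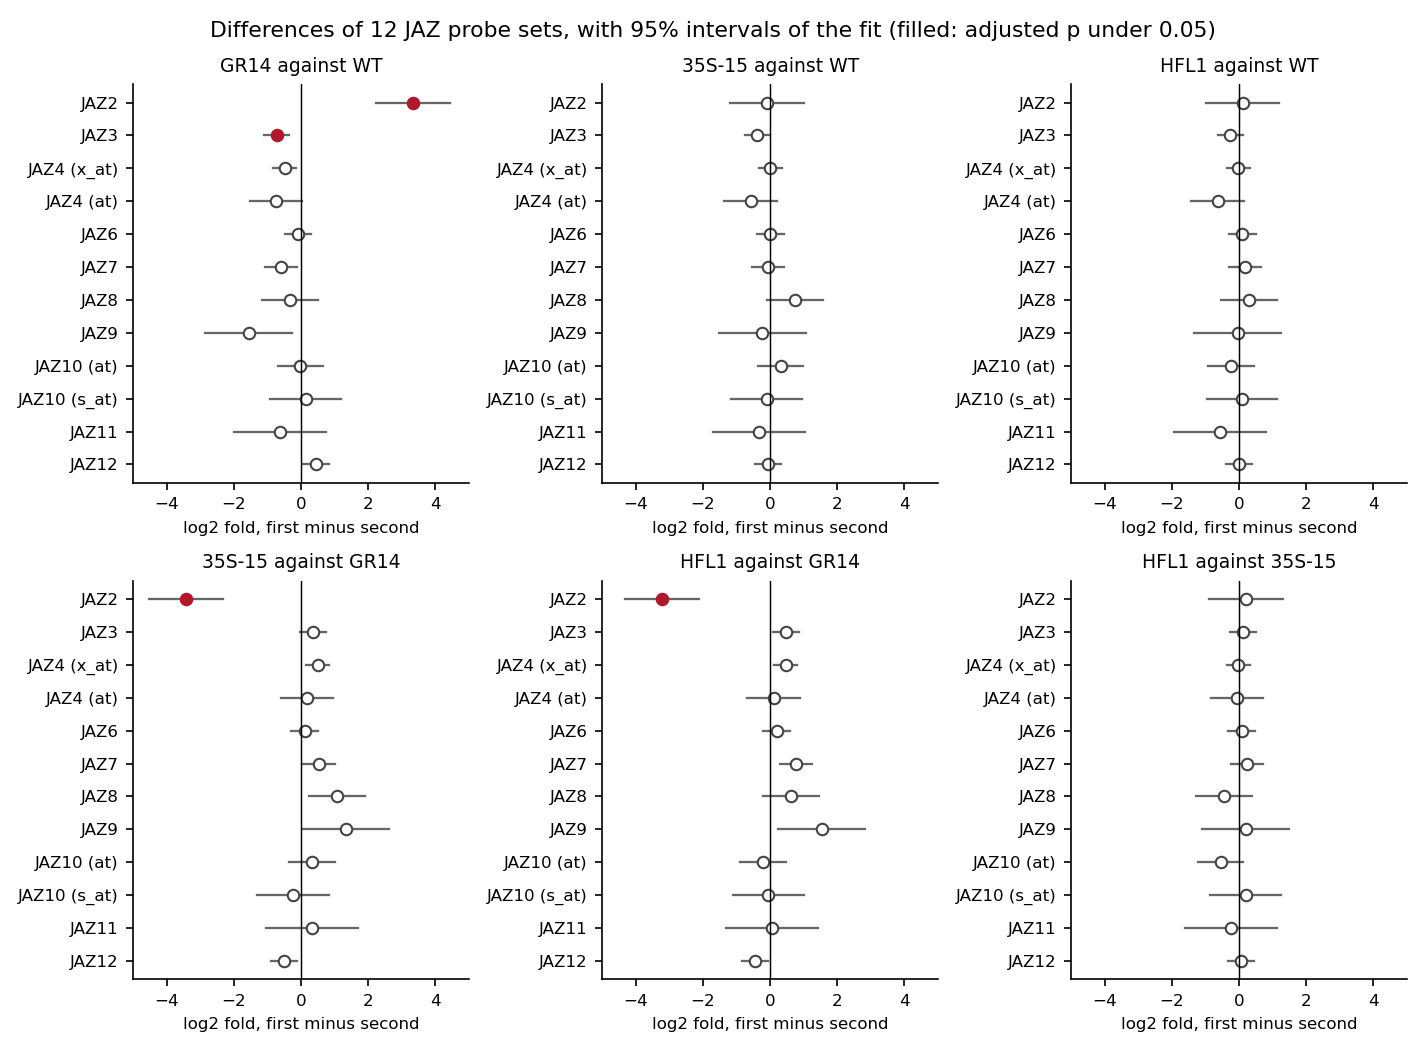
Log2 differences (horizontal axis, first-named minus second-named group) of the 12 JAZ probe sets in the 6 comparisons, with 95% intervals of the fit and filled points where the adjusted p was under 0.05. The filled points are JAZ2 and JAZ3 in GR14 against WT (3.33 and -0.73) and JAZ2 in 35S-15 and HFL1 against GR14 (-3.43 and -3.22).

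The other JAZ genes had no call in any comparison. JAZ4 (TIFY6B, LOC4347000, chromosome 9), which shares the TIFY6 name with JAZ3, had 2 probe sets, 1 with the ending _x_at, used like _s_at for probes that may hit other transcripts, and 1 with the plain ending _at. The first was at 10.82, 11.07 and 11.05 in GR14, against 11.72, 11.35 and 11.34 in WT, and ran from 11.28 to 11.75 in 35S-15 and from 11.33 to 11.61 in HFL1. Every GR14 array lay below the other 9, but the log2 difference of -0.49 ± 0.16 from WT had a limma adjusted p of 0.096. The _at probe set was at 6.51, 7.71 and 7.72 in GR14, against 8.48, 8.25 and 7.47 in WT. It differed by -0.75 ± 0.36, of the same sign (limma adjusted p 0.27), and its groups overlapped.

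The TIFY10 genes are JAZ6, JAZ7 and JAZ8. JAZ6 (TIFY10A, LOC4333065, chromosome 3, an _s_at probe set) had the smallest range over the 12 arrays of the 10 genes, 0.71, with group means between 10.46 in GR14 and 10.65 in HFL1, and its interval for GR14 against WT was -0.49 to 0.30. JAZ7 (TIFY10B, LOC4343899, chromosome 7) was at 10.90, 11.39 and 11.24 in GR14, against 11.80, 11.58 and 11.91 in WT. It was at 11.98, 12.01 and 11.10 in 35S-15 and at 11.98, 11.75 and 12.09 in HFL1. GR14 lay below WT and HFL1 without overlap, and 1 of the 35S-15 arrays lay within the GR14 range.

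JAZ7 was the JAZ gene closest to a further call. In HFL1 it was 0.76 ± 0.22 above GR14, with a limma adjusted p of 0.0588. It passed with a filter at the 70th percentile (adjusted p 0.0451), with array weights (0.82, adjusted p 0.0232) and with HFL1 and GR14 alone (adjusted p 0.0291). Without 35S-15 array 3, the low array of that line, it passed in HFL1 against GR14 (adjusted p 0.0115), in 35S-15 against GR14 (0.82, adjusted p 0.0175) and in GR14 against WT (-0.59, adjusted p 0.0461). With all arrays the last 2 were 0.52 (limma adjusted p 0.214) and -0.59 (limma adjusted p 0.15).

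JAZ8 (TIFY10C, LOC4347164, chromosome 9), which is known in rice as a regulator of resistance to bacterial blight, was at 9.15, 8.40 and 8.22 in GR14. The 35S-15 arrays were at 9.94, 9.87 and 9.16, the HFL1 arrays at 9.45, 9.56 and 8.61 and the WT arrays at 9.62, 9.08 and 8.06. The 35S-15 arrays lay just above the GR14 arrays. The difference, 1.06 ± 0.39 in 35S-15 relative to GR14, had a 95% interval of 0.23 to 1.90 and a limma adjusted p of 0.14. GR14 and WT overlapped, with a difference of -0.33.

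The TIFY11 genes are JAZ9, JAZ10, JAZ11 and JAZ12. On chromosome 3, JAZ9, JAZ11 and JAZ10 follow each other with 0 other genes between neighbours in the RefSeq annotation (assembly ASM3414082v1). JAZ9 (TIFY11A, LOC4331832), known in rice for a role in salt tolerance, was at 5.58, 4.78 and 3.87 in GR14. It was at 6.11, 5.91 and 6.19 in 35S-15, at 6.28, 5.91 and 6.60 in HFL1 and at 6.64, 7.25 and 5.03 in WT. Only 6 of the 12 arrays had JAZ9 above their median, and none of these was a GR14 array, so the size of its differences is uncertain.

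GR14 lay below 35S-15 and HFL1 for JAZ9 without overlap, and overlapped WT through WT array 3. The difference from WT was -1.56 ± 0.60, with a limma adjusted p of 0.158. Relative to GR14, JAZ9 was 1.33 higher in 35S-15 (limma adjusted p 0.243) and 1.53 higher in HFL1 (limma adjusted p 0.163), and none of these passed.

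JAZ11 (TIFY11C, LOC4331833) was at 8.78, 8.12 and 7.65 in GR14. The 35S-15 arrays were at 9.37, 8.08 and 8.05, the HFL1 arrays at 8.33, 8.41 and 8.00 and the WT arrays at 9.95, 9.63 and 6.88. The WT arrays held both the highest values and the lowest of the series for this gene. The difference in GR14 from WT was -0.63 ± 0.64, with an interval of -2.01 to 0.74. Without WT array 3 the differences were -1.61 for JAZ11 (limma adjusted p 0.0394) and -2.20 for JAZ9 (limma adjusted p 0.0428), both past the threshold. Without WT array 1 that of JAZ11 was -0.07. The GR14 difference of JAZ11 is therefore set by which WT arrays are used.

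JAZ10 (TIFY11B, LOC4331834), which increases grain size when overexpressed in rice, had 2 probe sets. The _s_at probe set was at 8.94, 8.70 and 7.90 in GR14, against 9.10, 9.02 and 7.02 in WT, and the _at probe set was at 7.21, 7.39 and 6.59 in GR14, against 7.44, 7.26 and 6.54 in WT. The groups overlapped on both probe sets. The differences in GR14 were 0.14 (interval -0.92 to 1.19) and -0.02 (interval -0.70 to 0.66). On the _at probe set the HFL1 arrays, at 6.59, 7.15 and 6.78, lay below the 35S-15 arrays, at 7.55, 7.25 and 7.36, with a difference of -0.55 ± 0.32 (limma adjusted p 0.974). The other probe set gave 0.19 for the same comparison.

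JAZ12 (TIFY11D, LOC4348533, chromosome 10) had its highest mean in GR14, as did JAZ2 and the _s_at probe set of JAZ10. It was at 10.71, 10.47 and 10.27 in GR14. In 35S-15 it was at 9.82, 10.10 and 10.02 and in HFL1 at 10.07, 9.79 and 10.25, both below GR14 without overlap. In WT it was at 10.34, 9.89 and 9.91. The GR14 difference from WT was 0.43 ± 0.18 (limma adjusted p 0.188), and the 35S-15 and HFL1 differences from GR14 were -0.50 and -0.44 (limma adjusted p 0.126 and 0.171). JAZ13, which lies 3 genes from JAZ12 on chromosome 10, also had its highest mean in GR14, 6.98 ± 0.52, against 6.39 ± 0.72 in WT, a difference of 0.59 (limma adjusted p 0.545). JAZ1 (EG2, known for a role in spikelet development) stayed between 13.08 and 13.60 on all 12 arrays.

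In WT the arrays differed more among themselves for the JAZ probe sets than for the typical probe set. The median SD over the 3 arrays was 0.38 for the JAZ probe sets in GR14, 0.24 in 35S-15, 0.29 in HFL1 and 0.50 in WT, beside 0.29, 0.29, 0.26 and 0.29 over all probe sets in the same groups. JAZ11 had the largest SD in WT, 1.69. WT array 1 was the lowest WT array for 0 of the 12 JAZ probe sets, against 38.8% of all probe sets tested. WT array 3 was the lowest for 7, against 31.8%. WT array 1 was the highest for 9, and the share of all probe sets highest there was not computed. WT array 1 is also the WT array without the reporter signal, and the part of that difference in these results was not tested. Array numbers are names only and tie no arrays across groups.

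The patterns most like those of JAZ2 and JAZ3 were sought among 2827 tested probe sets of genes with a symbol, by the root-mean-square difference of the 12 log2 values, each centred on its own mean. Closest to JAZ2, which ranged over 4.91, were the stress kinase gene SAPK9 (0.66), the heat shock factor gene HSF03 (0.67) and BBD1 (0.73). SAPK9 averaged 11.50 ± 0.18 in GR14 and 8.92 ± 0.64 in WT. HSF03 averaged 10.20 ± 0.33 in GR14 and 7.90 ± 0.46 in WT. BBD1 averaged 12.24 ± 0.18 in GR14 and 9.23 ± 0.36 in WT. Closest to JAZ3, which ranged over only 1.06, were AHP1, a phosphotransfer protein of cytokinin signalling (0.18), OsIF1-2 (0.19) and PAA1, a proteasome subunit (0.19). These are descriptions of 12 arrays of which 3 share each line. The genes were picked for this likeness, so their group levels follow from the choice and are not further observations.

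The other jasmonate genes were read from lists of pathway names. Of 37 listed genes on the array 27 were tested, with 1 probe set for each gene identifier; the name OPR5 is shared by 2 of them. In GR14 against WT 0 were higher and 1 was lower, and 5 had an unadjusted p under 0.05. In 35S-15 against WT 0 passed by limma, with 0 at an unadjusted p under 0.05, and in HFL1 against WT 0 passed, with 4. Relative to GR14, 1 was higher and 1 lower in 35S-15, with 3 at an unadjusted p under 0.05. In HFL1 1 was higher than in GR14, with 7 at an unadjusted p under 0.05. Between HFL1 and 35S-15, 0 passed, with 3 at an unadjusted p under 0.05. Over all probe sets the shares at an unadjusted p under 0.05 were 20.2%, 6.19% and 6.74% in GR14, 35S-15 and HFL1 against WT. They were 19.5% and 20.9% in 35S-15 and HFL1 against GR14, and 4.46% in HFL1 against 35S-15. By limma adjusted p, 5.66% of all probe sets passed in GR14 against WT. Against GR14, 5.94% passed in 35S-15 and 6.71% in HFL1.

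Of 10 tested genes from the synthesis list, OPR1 alone passed. OPR1 is a 12-oxophytodienoate reductase of the subgroup that is not the one assigned to jasmonate synthesis. It was at 8.74, 8.43 and 8.70 in GR14, against 9.27, 9.79 and 9.26 in WT. In 35S-15 it was at 9.85, 10.02 and 9.48 and in HFL1 at 10.03, 10.20 and 9.66. GR14 lay below all 9 other arrays. OPR1 fell by 0.82 ± 0.21 in GR14 relative to WT (limma adjusted p 0.0365), a call lost with WT array 1 as the only WT array (-0.65, adjusted p 0.326), without the trend (adjusted p 0.075), with the compared groups alone (adjusted p 0.0649) and in 6 of the 12 fits that left out 1 array. Relative to GR14 it was 1.16 ± 0.21 higher in 35S-15 (limma adjusted p 0.0044) and 1.34 ± 0.21 higher in HFL1 (limma adjusted p 0.00154), and these calls held in all 12 such fits.

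The other tested genes of the synthesis list, and the conjugation gene GH3.5, did not pass in GR14. The allene oxide cyclase AOC, at 11.24 ± 0.07 in GR14 and 11.00 ± 0.67 in WT, had a difference of 0.23. The allene oxide synthase AOS1 had one of -0.27. The lipoxygenase gene CM-LOX2 was 0.80 lower in GR14 than in WT without overlap of the arrays (limma adjusted p 0.208). In HFL1 it was 1.08 above GR14, also without overlap (limma adjusted p 0.0815). LOX2 and LOX5 differed by 0.06 and 0.31 in GR14 against WT. OPR7, the 12-oxophytodienoate reductase assigned to jasmonate synthesis (also named OPR13), was at 10.74 ± 0.13 in GR14 and 10.95 ± 0.21 in WT, a difference of -0.21. OPR8, another gene of the list, which carries OPR7 as a synonym, had one of -0.04. GH3.5 (JAR1), which makes the active conjugate jasmonoyl-isoleucine and is the only gene of the conjugation list, was at 10.17 ± 0.50 in GR14 and 9.98 ± 0.28 in WT, a difference of 0.19 with an interval of -0.30 to 0.69.

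Of 8 tested receptors and JAZ partners, the receptor gene COI1B passed in 1 comparison. It was at 11.26, 11.45 and 11.65 in 35S-15, against 11.96, 12.08 and 12.01 in GR14, with a difference of -0.56 ± 0.13 (limma adjusted p 0.0242). That call was lost without the trend (adjusted p 0.0652), with the compared groups alone (adjusted p 0.0671) and in 5 of the 12 fits that left out 1 array. In GR14 COI1B was 0.47 ± 0.13 above WT, where it was at 11.57, 11.46 and 11.61, with a limma adjusted p of 0.0594. Of the other receptor genes, COI2 had a difference of 0.31 in GR14 (limma adjusted p 0.204) and COI1 one of -0.05. The adaptor gene NINJA1 and the co-repressor genes TPR2 and TPR3 had differences of 0.12, 0.00 and 0.08 in GR14.

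Of the 3 tested jasmonate-responsive genes, 0 passed in any comparison. The transcription factor gene JAMYB was at 7.84, 8.70 and 8.16 in GR14, against 9.12, 9.52 and 8.50 in WT, a difference of -0.81 ± 0.35 (limma adjusted p 0.212). PBZ1, a pathogenesis-related protein of the PR10 class, had a difference of 0.15, and SALT, a lectin induced by salt and jasmonate, one of -0.23. The HFL1 arrays of SALT lay below the WT arrays, with a difference of -1.15 ± 0.40 (limma adjusted p 0.673) and one of -1.11 on another probe set (limma adjusted p 0.732). Of the 5 tested TIFY genes that are not among the 10, 0 passed in any comparison, with 1 at an unadjusted p under 0.05, namely JAZ13 in HFL1 against GR14 (-1.08, limma adjusted p 0.23). TIFY1a, TIFY2a and TIFY2b had differences of -0.21, 0.08 and 0.11 in GR14 against WT.

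**Figure D4:**
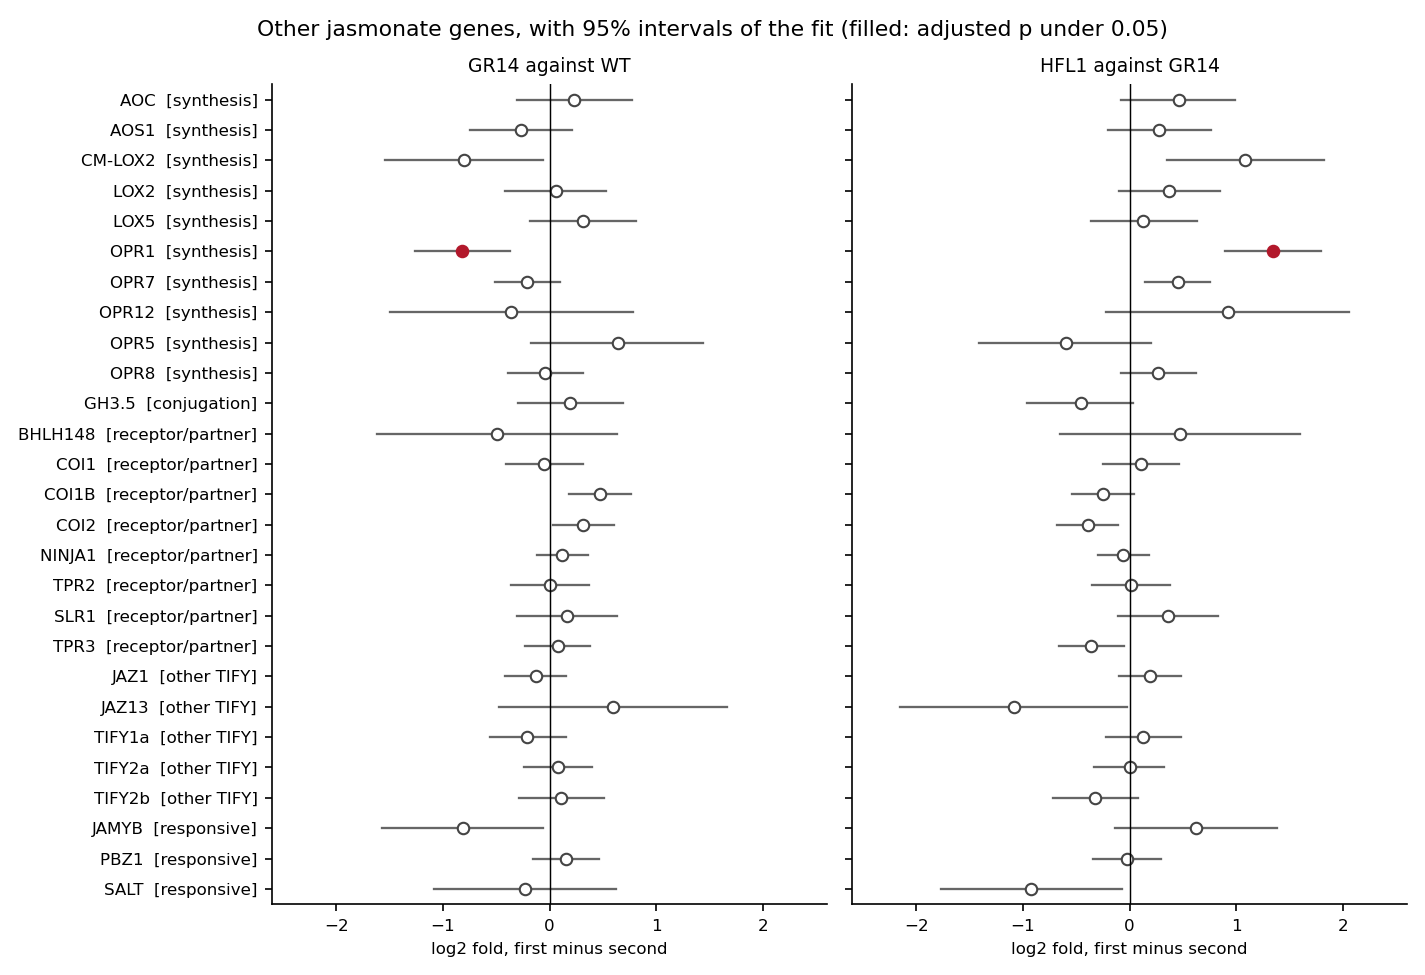
Log2 differences (horizontal axis, first-named minus second-named group) of 27 other jasmonate and TIFY genes in GR14 against WT and in HFL1 against GR14, with 95% intervals of the fit and filled points where the adjusted p was under 0.05. OPR1 is the 1 filled gene in each panel, at -0.82 and 1.34.

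Whole seeds hold several tissues, and in such samples fewer cells of a type and less RNA per cell cannot be told apart. Of 9 photosynthesis genes taken as markers of the green pericarp, 5 were lower and 1 was higher in GR14 than in WT. The higher one was LIR1 (2.52), and CAB2R, RBCS and PORB did not pass (0.09, -0.28 and -0.47). Over all probe sets tested, 2.96% were lower and 2.7% higher in GR14 than in WT, and these shares also apply to the other marker lists below. The mean log2 level of the 9 was 11.27 to 11.58 on the GR14 arrays and 12.17 to 12.41 in WT. In 35S-15 it was 12.42 to 12.75 and in HFL1 12.52 to 12.82. The GR14 arrays thus lay below all others in the mean of this list. Of the 6 that passed, all but RCABP69 also passed with WT array 1 as the only WT array. Of 8 embryo and aleurone genes, the embryo maturation regulator VP1 was higher in GR14, by 1.25 ± 0.26, and the list's mean level ran from 11.00 to 12.27 in GR14 and from 10.32 to 12.20 in WT. Of 6 seed coat and vascular genes 0 passed, and of the 13 endosperm genes SSI was higher and NFYB1 lower in GR14 (1.26 and -0.72). With WT array 1 as the only WT array VP1, SSI and NFYB1 did not pass (0.64, 0.82 and -0.65). Among the tested genes of the 4 lists the lowest group mean was 7.07. This lies above every array median, but the filter had kept only probe sets above the median on at least 3 of 12 arrays. The part of tissue make-up in the JAZ2 and JAZ3 differences was not tested.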

How the data were processed

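Transcripts were measured on 12 arrays in 4 groups of 3, grouped by the labelled rice strain. The deposited intensity values are MAS5 signals per probe set on a linear scale, per the submitters' processing notes, and neither version nor settings of that tool were at hand. Without the lowest and highest 2% of values the mean was 500.1 on every array, which shows a scaling by the authors. Detection calls were not used. The number of arrays limits the precision, since arrays have no read depth. Columns of single samples that went unused numbered 0.

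The deposited signals were taken as log2 without further normalization. AFFX control probe sets (123) and RPTR reporter probe sets (64) did not enter the tests. Tested were 31792 of 57381 probe sets, those above their array's median (the 50th percentile) in at least 3 of 12 arrays. In R 4.3.3, limma 3.58.1 fitted 1 model over the 4 groups (lmFit, then eBayes with an intensity trend), two-sided, with Benjamini-Hochberg adjustment over all tested probe sets at 0.05, and the fit was tested on simulated data. An error of a log2 difference is the SE of the fit, and an error of a level is an SD (n = 3).

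Genes were assigned from GEO's platform annotation, updated through gene identifiers with RefSeq (ASM3414082v1): 22436 probe sets had 1 gene, 95 several and 34850 none. No coordinates are given because the files name no build, and no sequence table was at hand. The members were matched by exact name; read without the Os prefix, the rule would add JAZ1 and JAZ5, whose synonyms come from another numbering, and this reading was added as an alternative after the data were seen. The members and the lists were chosen with earlier results of these data known. Named were all JAZ probe sets, each list gene called in any comparison (or, with none, its 3 genes of lowest p) and the 3 probe sets most like each called JAZ probe set. Other list and marker genes were named after their values were seen, and list names that matched unrelated genes were dropped.

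As alternatives the signals were quantile-normalized, median-centred or taken as log2(signal + 50), the filter was dropped or set at the 70th percentile, and the trend was left out. Array weights, WT array 1 as the only WT array, each pair of groups fitted alone, fits without _x_at and _s_at probe sets, and fits without each array in turn were also run.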

Additional observations from a re-analysis of the deposited data

How the results depend on the processing

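Over all tested probe sets, 1799 were called in GR14 against WT, 9 in 35S-15 against WT, 9 in HFL1 against WT, 1889 in 35S-15 against GR14, 2133 in HFL1 against GR14 and 2 in HFL1 against 35S-15. With 1 array left out these counts ran from 972 to 1805, 8 to 15, 6 to 18, 1124 to 1909, 1166 to 2156 and 1 to 3. Without the intensity trend GR14 against WT gave 1160 and 35S-15 against GR14 gave 1259. With WT array 1 as the only WT array the comparisons with WT gave 747, 26 and 24. Median centring shifted the median difference of 35S-15 against WT by -0.155, where 2 rather than 4 JAZ probe sets were then positive. It lowered the share of higher calls in GR14 against WT to 37.5%, beside 47.7%, and quantile normalization lowered that of 35S-15 against WT to 75%, beside 88.9%.

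Of the 2 JAZ calls in GR14 against WT, 1 remained without the trend, with array weights, with the compared groups alone and without _x_at and _s_at probe sets, and 0 with WT array 1 as the only WT array; the range with 1 array left out was 1 to 3. Without _x_at and _s_at probe sets JAZ2 itself is not in the fit, which leaves 0 calls in 35S-15 and 0 in HFL1 against GR14. HFL1 against GR14 gave 2 calls with a filter at the 70th percentile, with array weights and with those groups alone, and 1 to 2 with 1 array left out, as did 35S-15 against GR14. The counts of 0 in 35S-15 and HFL1 against WT and in HFL1 against 35S-15 were 0 in every alternative run. The added reading with JAZ1 and JAZ5 changed no count, but JAZ5 had missed the filter and had no test in the reported fit. No difference of a JAZ gene with a call changed sign. No paired analysis was possible because the labels give no replicate numbers within a group. No detection calls were used, so differences of genes near the array median, such as JAZ9, are of uncertain size.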
